A study of Mus musculus with 183 samples.

Results

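Sfpq, Nono and Pspc1 encode the DBHS (Drosophila behaviour/human splicing) proteins, and Ewsr1 and Taf15 encode FET proteins. These 5 mRNAs were taken by gene symbol from a table of counts for 53380 genes and from a table of decay factor binding for 7240 mRNAs, and each was found once in both. DBHS proteins are nuclear RNA-binding proteins that pair with one another through a shared core of RNA recognition motifs and a coiled coil. They take part in transcription, splicing and DNA repair, and together with the long noncoding RNA Neat1 they build paraspeckles, nuclear bodies that hold selected RNAs and proteins. FET proteins combine a low-complexity region that condenses readily with an RNA recognition motif and arginine- and glycine-rich repeats. They act in transcription and splicing, and paraspeckles also contain members of this family.

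RNA levels and decay were measured in mouse embryonic stem cells (mESCs) of 2 lines. Clone 5F carries Rosa26Cre-ERT2/- and Skiv2lfl/fl. Clone 7E lacks Aven (Aven-/-), carries Rosa26Cre-ERT2/BirA-V6 (BirA-V5 in the study's list of lines) and has its Skiv2l gene tagged as Skiv2l3xFLAG-Avi/3xFLAG-Avi, and other labels of the study add Skiv2lfl/fl. SKIV2L is the helicase of the Ski complex, which feeds mRNA to the cytoplasmic exosome for 3′–5′ decay, and AVEN is a ribosome-associated partner of that complex. Cre-ERT2, driven from the Rosa26 locus, is activated by 4-hydroxytamoxifen (4OHT) and removes the exons between loxP sites. Cells were taken at day 0 or at day 4 of 0.1 µM 4OHT. They then received DMSO alone (mock, labelled 0 min) or the transcription inhibitor actinomycin D, with harvests at 120, 240 and 360 min. The methods give the mock treatment as 360 min, and it is taken as 0 min of actinomycin D here. The dose of actinomycin D is given as 5 µg/µl in the labels and as 5 µM in the methods. Every clone, day and time had 3 libraries, except clone 5F at day 0 and 120 min with 2, and the remaining library of that group was not analysed here. Each line is a single clone, so genotype, tag and clone cannot be told apart. The replicates of this experiment are technical, and p-values therefore measure only the spread between such libraries.

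The 47 libraries held 24440935 to 34114250 gene counts each. In the mock libraries of clone 5F Skiv2l had 148 CPM at day 0 (SD 0.290, n = 3) and 143 CPM afterwards (SD 10.4, n = 3) and was not called (log2 fold change -0.01, adjusted p = 0.922, edgeR), so the latter are called libraries labelled day 4. In clone 7E Skiv2l fell from 33.6 to 13.1 CPM (log2 fold change -1.32, adjusted p = 3.67e-13, edgeR), and Aven was at 2.32 CPM at day 0 compared with 35.6 in clone 5F. Skiv2l was thus already lower in clone 7E than in clone 5F at day 0 (log2 difference -2.10, adjusted p = 3.84e-18, edgeR). All 6 mESC markers examined, among them Pou5f1, Nanog and Sox2, were expressed at over 200 CPM in every mock group. A set of 12 libraries (replicate 1 at 120 min, replicate 2 at 240 min and replicate 3 at 360 min of all 4 clone and day groups) stood apart from the other actinomycin D libraries. The mitochondrial rRNA mt-Rnr2 made up 0.214% to 0.664% of their gene counts and 1.18% to 3.07% in the other 23. The decay results below include these libraries, and the half-lives are also given without them.

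The coding regions of the DBHS mRNAs share a purine run of at least 12 nt, a kind of run at which the study examined SKIV2L binding. The study took only runs in frame and of whole codons, whereas runs in any frame are counted here. It reported a stronger SKIV2L enrichment at A-rich than at G-rich runs. The longest run of each mRNA is printed 5′ to 3′ with its flanks, and the capitals mark the unbroken stretch of A and G. Chromosome positions given for a run are those of the whole printed stretch in each exon, flanks included.

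Sfpq: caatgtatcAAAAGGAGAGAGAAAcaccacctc

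Nono: caattccacAAGGAGAGAGAAcagccaccc

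Pspc1: cagtaccatAAGGAAAGAGAAcagccacca

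Ewsr1: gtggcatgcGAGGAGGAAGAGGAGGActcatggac

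Taf15: aggcaaaatGGGAGGAAGAAAcgactacag

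The Sfpq run covers nt 1388 to 1402 of the coding region and crosses from exon 4 (chr4:127023757-127023769, plus strand, GRCm38) into exon 5 (chr4:127025855-127025874). In Nono it covers nt 751 to 762 and crosses from exon 6 (chrX:101443015-101443025, plus strand) into exon 7 (chrX:101443295-101443313). The Pspc1 run, at nt 766 to 777, crosses from exon 3 (chr14:56764149-56764159, minus strand) into exon 4 (chr14:56762012-56762030). These 3 runs thus lie across an exon junction in each DBHS gene, and they align in frame. Over 21 nt from the first AAG codon that opens the shared stretch, Sfpq and Nono were identical at 17 positions, Sfpq and Pspc1 at 16, and Nono and Pspc1 at 19. The 12-nt stretch AAGGAGAGAGAA of Sfpq and Nono was found, on the coding strand and with no mismatch, in 18 of the 6711 coding regions searched (0.268%).

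In Ewsr1 the longest run, of 17 nt, lies within exon 16 (chr11:5070419-5070453, minus strand). In Taf15 the run is 12 nt long, from exon 15 (chr11:83505087-83505104, plus strand) to exon 16 (chr11:83506418-83506429). Runs of at least 12 nt, in any frame, occurred in 64% of all coding regions searched, so their presence alone does not set these mRNAs apart. Sfpq had 4 of them and Ewsr1 3, or 1.91 and 1.52 per kb, at the percentiles 84.1 and 77.6 of the coding regions. Nono, Pspc1 and Taf15 had 1 each, close to the median density of 0.67 per kb. A match of letters describes the sequence and is not a measured binding site.

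Sfpq stood out instead for proline codons (CCN), a further codon type the study examined. These made up 16.3% of its codons (percentile 99.3, with a median of 5.46% over the coding regions), and its longest unbroken series was 5 codons. That series, in capitals, lies in exon 1 (chr4:127021582-127021614 with its printed flanks, plus strand).

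Sfpq, proline codons: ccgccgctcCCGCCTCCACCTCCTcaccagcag

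A series of at least 5 proline codons was present in 4.56% of coding regions. Ewsr1 followed with 11.4% proline codons (percentile 95.3), whereas Taf15 had 3.05% (percentile 9.31), so the FET pair differed in this respect.

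The members lie on several chromosomes, at chr4:127021324-127037013 (Sfpq), chrX:101429318-101448591 (Nono), chr14:56720710-56778316 (Pspc1), chr11:5069689-5099266 (Ewsr1) and chr11:83473086-83506743 (Taf15) in GRCm38. As the libraries do not keep the strand, overlapping genes could share reads. Of the exonic nt of Ewsr1, 4.37% overlap Rhbdd3 on the opposite strand, and of those of Sfpq, 4.55% overlap the noncoding Gm12940. No exonic overlap was found for Nono, Pspc1 or Taf15.

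Levels per transcript length came from the authors' RPKM values for 3 tagged lines. Sfpq had 217, 218 and 245 RPKM in the MTR4, SKIV2L and XRN1 lines, Nono 210, 256 and 237, and Ewsr1 224, 197 and 174. The ranges of these 3 mRNAs overlapped, and their medians lay at the percentiles 94.9 to 96.1 of the table. Pspc1 had 65.9, 63.3 and 51.3 RPKM and Taf15 65.6, 34.0 and 39.5 in the same lines. They overlapped with each other and lay below all values of the former group, so the DBHS and FET families each held abundant and less abundant members.

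Relative binding to decay factors was read from CRAC, in which RNA fragments crosslinked to a tagged protein by UV are sequenced. The libraries of a protein had been pooled by the authors and brought to a common sum, and each value is a share of the total of MTR4, SKIV2L and XRN1 on that mRNA, so the 3 values sum to 1 and no replicate error can be attached. MTR4 is the helicase of the nuclear exosome and XRN1 the cytoplasmic 5′–3′ exonuclease. SKIV2L took the largest share in 4 of the 5 mRNAs (80%), compared with 26.5% of the 7240 mRNAs and 14 of the 32 listed mRNAs for other paraspeckle-related proteins (43.8%). All 5 lay above the table's SKIV2L median of 0.267.

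Nono, an X-linked DBHS gene, had the highest SKIV2L value at 0.728 (percentile 99.4), with 0.139 for MTR4 and 0.133 for XRN1. Ewsr1 followed with 0.607 for SKIV2L (percentile 96.2), 0.151 for MTR4 and 0.242 for XRN1. These 2 mRNAs were low for MTR4, at the percentiles 5.65 and 7.51, and for XRN1 they were at 7.65 and 26.5. Pspc1 was split between SKIV2L at 0.438 and MTR4 at 0.453, and its XRN1 value of 0.109 lay at the percentile 4.96. Taf15 had 0.441 for SKIV2L and the highest XRN1 value of the 5, 0.352, the only one above the XRN1 median of 0.337.

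AVEN binding, expressed relative to the same total, ordered the mRNAs differently. It was 0.497 for Pspc1 (percentile 87.3) and 0.428 for Sfpq (percentile 78.7), compared with a median of 0.2955. Taf15 had 0.279, Nono 0.251 and Ewsr1 0.226, all below the median. The mRNAs with the highest SKIV2L shares thus had the lowest AVEN values among the 5, although all these ratios share a denominator and the depth behind them is unknown. Adjusted for the RNA level of each tagged line relative to the median line, the SKIV2L values were 0.675 for Nono and 0.511 for Taf15, and each of the 15 values for the decay factors moved by less than 0.1. For Pspc1 the adjusted values were 0.438 for SKIV2L and 0.435 for MTR4, so which of them led depended on this adjustment.

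**Figure D1:**
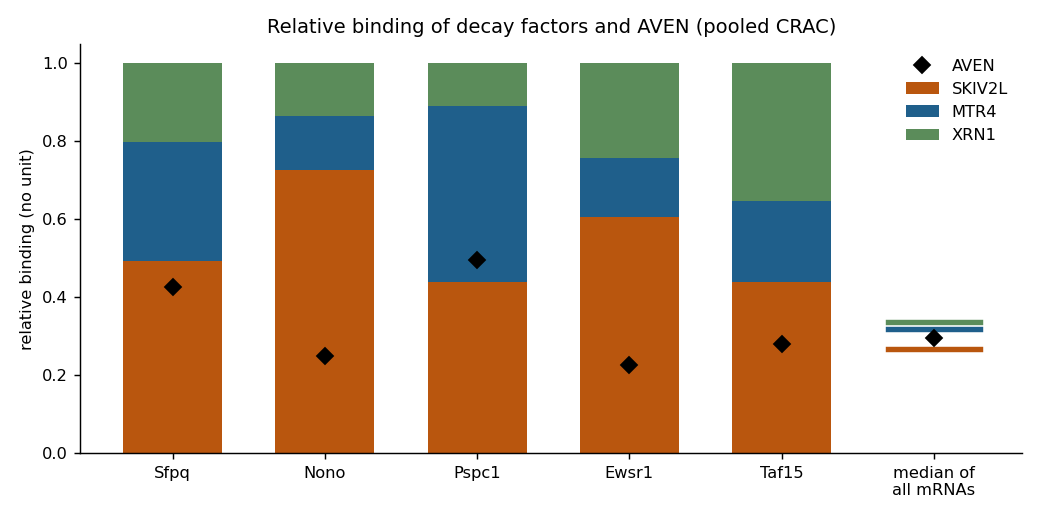
Relative binding (no unit, vertical axis) of SKIV2L, MTR4 and XRN1, stacked to 1 for each mRNA, with AVEN as black diamonds and the medians of the table as lines at the right. Nono and Ewsr1 show the largest SKIV2L shares, 0.728 and 0.607, and Pspc1 the highest AVEN value, 0.497.

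Mock libraries were compared to ask how the steady-state mRNA levels differed with 4OHT and between the clones. The values are counts divided by size factors, so they are levels relative to the other mRNAs of the cell. In bulk samples, fewer cells of a type and less RNA per cell cannot be told apart. The ERCC spike-ins, RNAs added in fixed amount, reached 6.42‰ to 6.62‰ of the gene counts in the mock libraries of clone 7E at day 4 and 2.76‰ to 3.20‰ in the other mock libraries, so changes scaled by spike-ins are also given for the 5 mRNAs.

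In clone 5F, Pspc1 and Taf15 rose between day 0 and the day 4 label, and the other 3 did not pass the test. In this comparison 22.6% of the 17209 genes tested were called, 11.9% higher and 10.8% lower, against 2 of 5 members. The 95% intervals below are normal approximations from the standard error of each fit. Pspc1, which encodes a paraspeckle core protein, had normalised counts of 4043, 4010 and 4023 at day 0 and 4995, 5354 and 5175 in the libraries labelled day 4. The groups did not overlap, and the log2 difference was 0.36 (standard error 0.04, adjusted p = 1.43e-06, edgeR). Taf15, which encodes a FET protein associated with the general transcription factor TFIID, had 1155, 1264 and 1214 at day 0 and 1745, 2036 and 1976 in the libraries labelled day 4. Its difference of 0.66 on the log2 scale (standard error 0.07, adjusted p = 2.06e-07, edgeR) was larger than that of 95.4% of the genes.

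Sfpq had 16239, 16051 and 16341 at day 0 and 15732, 16821 and 15723 in the libraries labelled day 4. These values overlapped, and the log2 fold change of -0.01 had a 95% interval of -0.09 to 0.06. Nono had 9172, 9066 and 9363 at day 0 and 8907, 8672 and 8797 in the libraries labelled day 4. Although the latter were all lower, the log2 fold change of -0.07 did not pass the test (95% interval -0.15 to 0.02, adjusted p = 0.299, edgeR). Ewsr1 had 10140, 10454 and 10406 at day 0 and 11115, 10540 and 11146 in the libraries labelled day 4, a log2 fold change of 0.08 (95% interval -0.00 to 0.16, adjusted p = 0.178, edgeR).

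**Figure D2:**
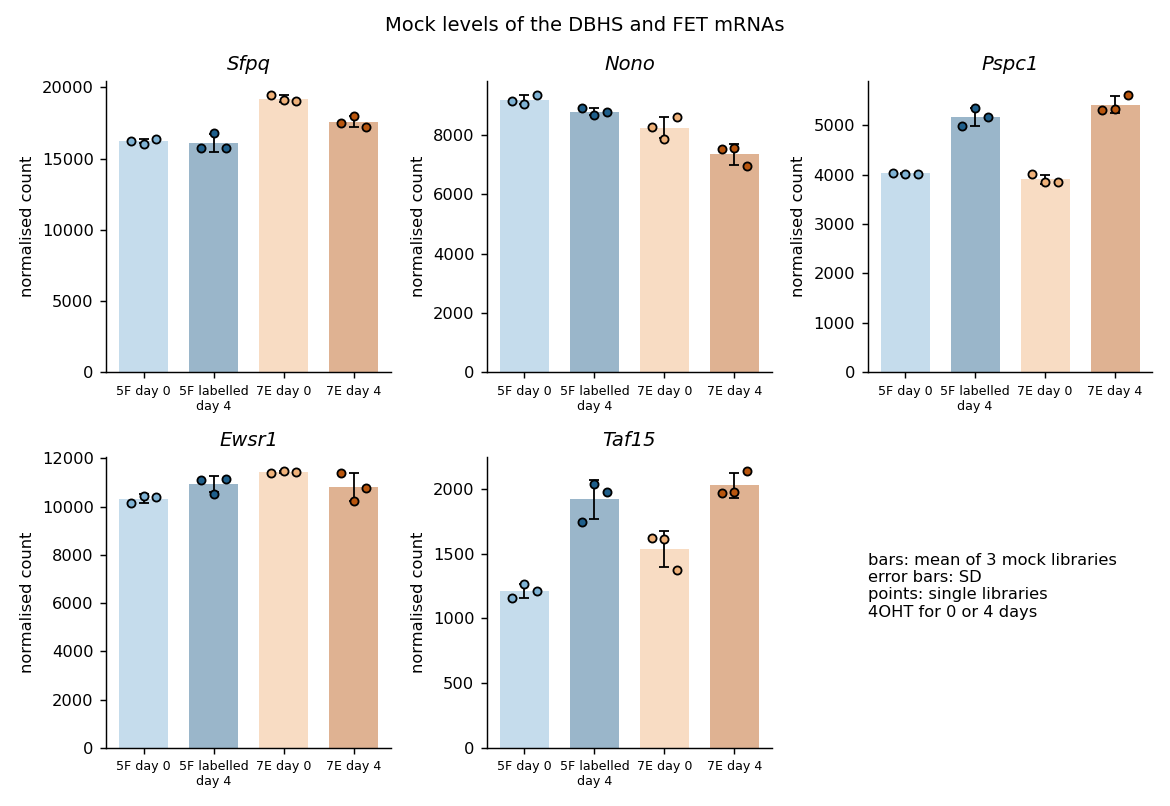
Normalised counts (vertical axis) of the 5 mRNAs in mock libraries of each clone and day of 4OHT, with points for libraries, bars for means and error bars for the SD (n = 3). Pspc1 and Taf15 are higher in the libraries of day 4 of both clones, with means of 5175 and 5422 compared with 4025 and 3906 for Pspc1.

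In clone 7E, 4 of the 5 mRNAs passed the test, against a background of 39.9% of genes called, 20.5% higher and 19.4% lower. Pspc1 and Taf15 were again higher at day 4, and Sfpq and Nono were slightly lower. Pspc1 had 4006, 3860 and 3851 at day 0 and 5311, 5336 and 5618 at day 4. It thus rose by 0.47 on the log2 scale (standard error 0.04, adjusted p = 4.28e-09, edgeR), with all libraries of day 4 above those of day 0. Taf15 had 1619, 1617 and 1377 at day 0 and 1968, 1974 and 2142 at day 4, a rise of 0.40 on the log2 scale (standard error 0.07, adjusted p = 3.64e-05, edgeR).

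Sfpq, which encodes the largest DBHS protein, had 19470, 19140 and 19033 at day 0 and 17530, 17975 and 17234 at day 4. The groups did not overlap, but the change was small, at -0.13 (standard error 0.04, adjusted p = 0.0103, edgeR), and it was not called without replicate 1 (adjusted p = 0.153) or replicate 3 (adjusted p = 0.0722). Nono had 8286, 7887 and 8604 at day 0 and 7546, 7563 and 6958 at day 4. The log2 difference of -0.17 (standard error 0.04, adjusted p = 0.00333, edgeR) was lost without replicate 3 (-0.10, adjusted p = 0.154). Ewsr1 had 11400, 11493 and 11429 at day 0 and 11408, 10237 and 10764 at day 4, and these overlapped (adjusted p = 0.125, edgeR).

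In clone 7E the scaling set the direction of the changes of Pspc1 and Taf15, whereas those of Sfpq, Nono and Ewsr1 were negative under both scalings. With a separate spike-in factor for every library, the median of all genes moved to -1.10 and all 5 mRNAs were lower at day 4, Pspc1 with -0.62 and Taf15 with -0.70. Relative to that median, Pspc1 was at 0.48, Taf15 at 0.41, Ewsr1 at -0.08, Sfpq at -0.12 and Nono at -0.16, close to the values by size factors. In clone 5F the median of all genes moved to -0.07 with this scaling, and Pspc1 and Taf15 stayed called.

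Whether the change with 4OHT differed between the clones was tested as an interaction. No member passed, and 11.9% of all genes did (6.65% higher and 5.29% lower in clone 7E). At an unadjusted p under 0.05 there were 3 of the 5 and 4207 of 17209 genes. DESeq2 also called 0 of the 5. Taf15 had the largest difference, -0.26 (95% interval -0.45 to -0.08, adjusted p = 0.0703, edgeR). It was called without replicate 3 (adjusted p = 0.0283) and with no filter on low counts (adjusted p = 0.0253). Ewsr1 followed with -0.16 (95% interval -0.28 to -0.05, adjusted p = 0.0761, edgeR). Pspc1 had 0.11, Sfpq -0.12 and Nono -0.10, with adjusted p of 0.258, 0.182 and 0.326 (edgeR). By the own spike-ins, in contrast, the difference was between -0.92 and -1.29 for all 5, around a median of -1.03 over all genes.

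At day 0 the clones differed in 4 of the 5 mRNAs, compared with 36.2% of all genes (18.1% in each direction). Sfpq was higher in clone 7E than in clone 5F by 0.25 (standard error 0.04, adjusted p = 1.96e-05, edgeR), Taf15 by 0.34 (standard error 0.07, adjusted p = 0.00027, edgeR) and Ewsr1 by 0.15 (standard error 0.04, adjusted p = 0.00809, edgeR). Nono was lower by -0.16 (standard error 0.04, adjusted p = 0.00599, edgeR), and Pspc1 was not called (-0.04, 95% interval -0.13 to 0.04). The libraries of the clones did not overlap at day 0 for these mRNAs. For Pspc1 they nearly touched, with a highest value of 4006 in clone 7E and a lowest of 4010 in clone 5F. The share of all genes separated in this way was not counted, so the separation is not read as particular to these mRNAs. With the own spike-ins the median of all genes was -0.17, Ewsr1 was at -0.01, and Sfpq (0.09, adjusted p = 0.203) and Taf15 (0.18, adjusted p = 0.0688) were no longer called, while Pspc1 was (-0.20, adjusted p = 0.00565) and Nono was at -0.32. Without replicate 1, Nono (adjusted p = 0.0835) and Ewsr1 (adjusted p = 0.101) were not called.

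Markers of primitive endoderm also differed between the clones. The 4 genes examined (Gata4, Gata6, Sox17 and Dab2) summed to 95.1 to 101 CPM in the mock libraries of clone 5F at day 0 and to 9.18 to 10.5 CPM in those of clone 7E, with all 4 genes above 1 CPM in both. The 5 fibroblast markers summed to 28.2 to 30.7 CPM and 3.82 to 4.42 CPM in the same libraries. In clone 5F most of this was Pdgfra (23.6 CPM), while Twist2 was near 0. The sum thus rests mainly on a single gene and is not read as a fibroblast signal. The part of these markers in the difference between the clones was not tested. After 4OHT the primitive endoderm sum was 70.4 to 73.7 CPM in the libraries of clone 5F labelled day 4 and 9.01 to 9.44 CPM in clone 7E. The fibroblast sum was 26.7 to 28.2 CPM and 6.73 to 8.05 CPM in the same libraries, the latter above day 0 of clone 7E. The mESC marker sum went from between 2651 and 2668 CPM at day 0 to between 2363 and 2473 in clone 5F, and from between 2633 and 2729 to between 2200 and 2281 in clone 7E. Their part in the changes with 4OHT was not tested either.

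**Figure D3:**
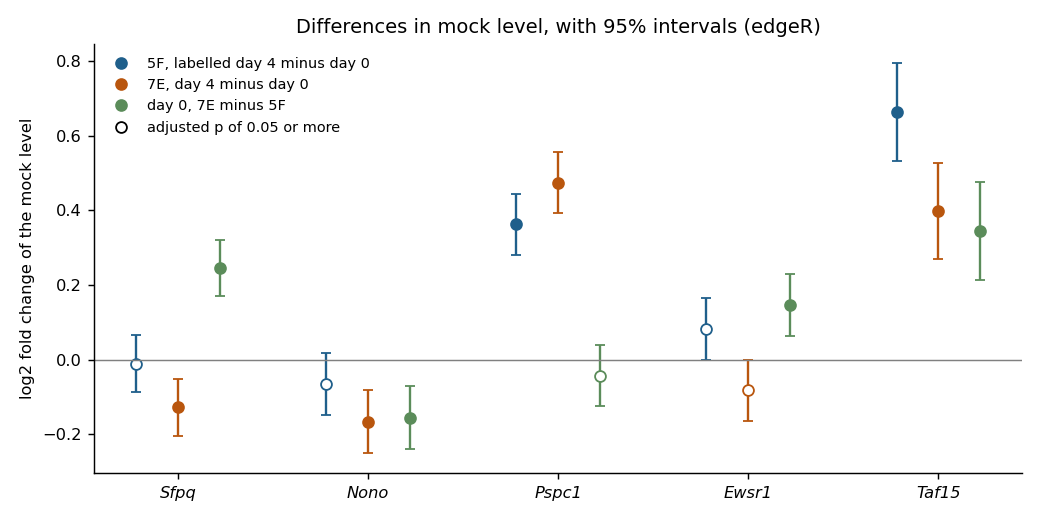
Log2 fold changes of the mock level (vertical axis) of the 5 mRNAs in 3 comparisons, with 95% intervals and open points where the adjusted p was 0.05 or more. Pspc1 and Taf15 lie above 0 with 4OHT in both clones under size factor scaling, at 0.36 and 0.47 and at 0.66 and 0.40, and both clone 7E values fall below 0 with a spike-in factor for every library.

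Other paraspeckle-related genes were taken from a list of 40, all of which were tested. In clone 5F, 11 rose and 3 fell, and the median log2 difference was 0.04 compared with -0.00 over all genes. In clone 7E, 8 were higher and 7 lower, with a median of -0.02 compared with -0.01 over all genes. Between the clones at day 0, 15 were higher and 4 lower in clone 7E, with a median of 0.08. The share called, 14, 15 and 19 of 40, is read against the backgrounds of 22.6%, 39.9% and 36.2%.

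Zc3h6, a zinc finger gene, had the largest increase in both clones, 1.12 (adjusted p = 0.00364) and 0.66 (adjusted p = 0.0111, edgeR), but on 12 to 75 counts per mock library, and its exons overlap other genes. Cirbp, a cold-inducible RNA-binding protein gene, rose by 0.33 in clone 7E (adjusted p = 3.46e-05, edgeR). Among the genes that were lower, Rbm7, a cofactor of the nuclear exosome, had -0.25 and Aqr, a splicing helicase gene, -0.12 in clone 5F. In clone 7E, Rbm4b had -0.30 and the RNA-binding protein gene Dazap1 -0.24. Rbm12 was lower in both, at -0.20 and -0.31, and 32.6% of its exonic nt are shared with Gm28036.

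Neat1, the scaffold of paraspeckles, had 1012, 997 and 861 normalised counts in clone 5F at day 0 and 1202, 1416 and 1435 in the libraries labelled day 4. It rose by 0.50 there (standard error 0.10, adjusted p = 0.000749, edgeR). In clone 7E it had 3097, 2903 and 2319 at day 0 and 2761, 2420 and 3040 at day 4, which overlapped (log2 fold change -0.02, adjusted p = 0.899, edgeR). At day 0 Neat1 was thus higher in clone 7E by 1.53 (standard error 0.09, adjusted p = 7.72e-12, edgeR), more than 99.7% of genes. Among the genes of this list called higher in clone 7E, the next largest differences were those of Zc3h6 with 1.36 and of Nudt21, a subunit of the cleavage factor that acts before polyadenylation, with 0.66. Among the genes called lower in clone 7E, Hnrnph3, Toe1 and Rbm12 had the largest differences, at -0.17, -0.16 and -0.16. Rbm14 and Matr3 were not called in any of these 3 comparisons, with adjusted p of 0.0877 to 0.607 (edgeR).

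Decay was measured from the mRNA left after actinomycin D. Counts were scaled within each time by size factors and between times by a spike-in factor of 0.649, 0.531 and 0.438 at 120, 240 and 360 min. The size factors bring all groups of a time to a common typical level. A change in decay shared by most mRNAs of a group is thus removed, and groups are compared relative to the typical mRNA. All 5 mRNAs declined in each clone and day, and they differed in how fast. At 360 min of clone 5F at day 0, the libraries held 57.2%, 58.4% and 59.7% of the mock mean for Nono and 47.9%, 50.7% and 44.8% for Sfpq. Ewsr1 was at 41.9%, 40.1% and 42.8%, and Pspc1 at 34.3%, 34.2% and 34.7%. These 4 mRNAs did not overlap with one another at that time.

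Fitted half-lives gave the same order among these 4. Nono had 448, 466, 420 and 416 min in clone 5F at day 0, clone 5F labelled day 4, clone 7E at day 0 and clone 7E at day 4. Sfpq had 331, 281, 312 and 287 min in the same groups, Ewsr1 279, 253, 261 and 248 min, and Pspc1 240, 220, 230 and 210 min. The median slopes of all 18623 genes tested correspond to 280 to 286 min. Their likeness among the groups follows from the scaling and is not a result. With each library's own spike-ins, Nono, Sfpq, Ewsr1 and Pspc1 had 497, 324, 274 and 228 min in clone 7E at day 4. In clone 5F labelled day 4 they had 447, 274, 248 and 216 min with that scaling. Nono was thus the most slowly decaying DBHS mRNA, slower than 73.2% to 79.2% of genes, and Pspc1 the fastest, slower than 29.7% to 41.1%. Within each group the ranges of 1 standard error of Nono, Sfpq and Pspc1 were separate from each other. Those of Sfpq and Ewsr1 were also separate, and they came closest in clone 5F labelled day 4, at 264 to 301 min and 248 to 258 min. Pspc1 and Ewsr1 overlapped in clone 7E at day 0, with 209 to 256 and 254 to 269 min.

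The decline of Pspc1 was not even. In clone 5F at day 0 the mean left was 57.0% at 120 min, 45.9% at 240 min and 34.4% at 360 min. In clone 7E at day 4 it was 54.8%, 40.3% and 29.6%. In both groups each later interval removed a smaller share of the mRNA present at its start than the first interval did. Without the 360 min libraries the half-life of Pspc1 was 179 to 212 min over the 4 groups. Ewsr1 declined evenly in comparison, with 75.6%, 52.9% and 41.6% in clone 5F at day 0.

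**Figure D4:**
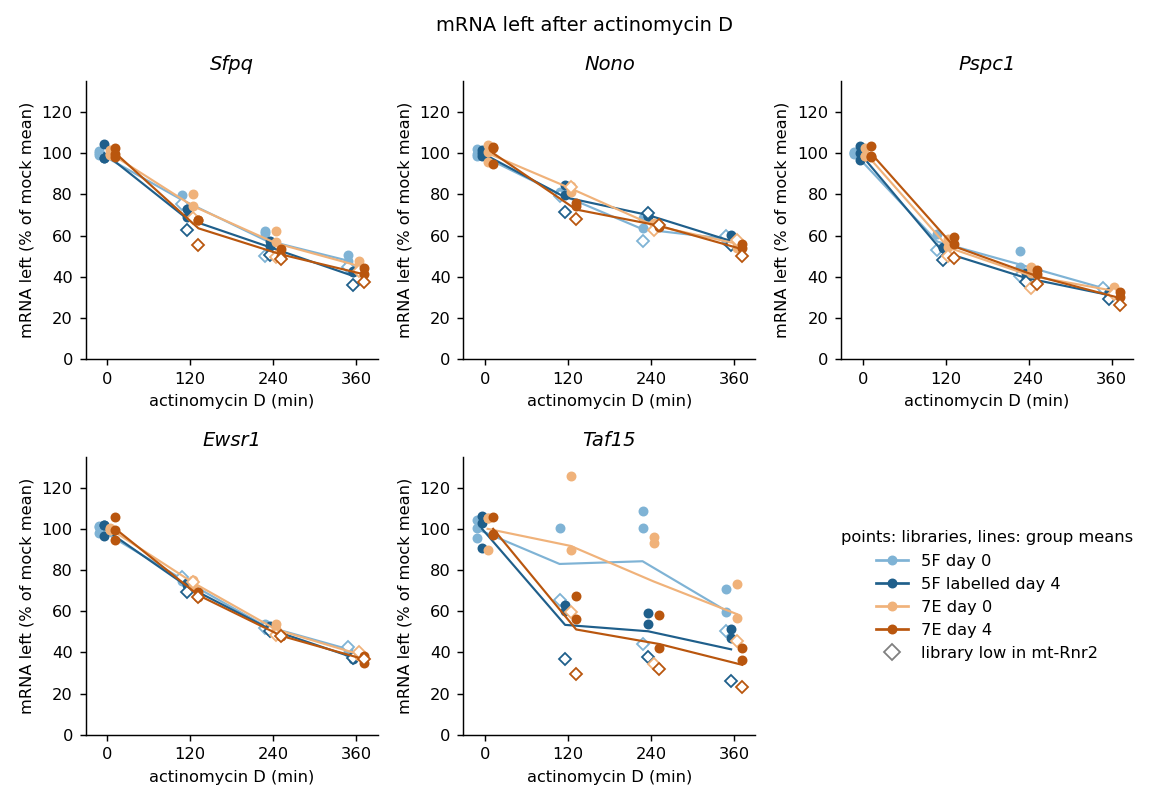
mRNA left, in % of the mock mean of the same clone and day (vertical axis), by minutes of actinomycin D, with points for libraries, lines for group means and open diamonds for the 12 libraries low in mt-Rnr2. Ewsr1 and Nono decline with little spread, and the open diamonds lie lowest for Taf15 at each time after the mock.

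Taf15 behaved unlike the other 4. In clone 5F at day 0 it was at 109%, 43.9% and 100% of the mock mean in the 3 libraries of 240 min and at 59.7%, 70.8% and 50.6% at 360 min. In clone 7E at day 0 the values at 240 min were 93.0%, 34.5% and 95.9%. The low library at 240 min was in each case the replicate that was low in mt-Rnr2. In all 12 groups with actinomycin D, the library low in mt-Rnr2 had the lowest Taf15 value, at 0.365 to 0.776 of the mean of the others. The same held for Sfpq in all 12 groups, where the ratio was 0.812 to 0.945. It held for Nono in 7 groups, Pspc1 in 11 and Ewsr1 in 5. What distinguishes these libraries is not stated in the labels, and their part in the decay of Taf15 was not tested beyond the values without them.

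The half-lives of Taf15 accordingly had wide errors. They were 523 min in clone 5F at day 0 (1 standard error of the slope spans 361 to 948 min), 297 min in the libraries labelled day 4 (235 to 401), 435 min in clone 7E at day 0 (301 to 786) and 241 min at day 4 (195 to 316). Without the 12 libraries, a choice made after seeing the data, they were 736, 356, 640 and 268 min. For the other 4 mRNAs the same choice moved no half-life by more than 20 min.

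**Figure D5:**
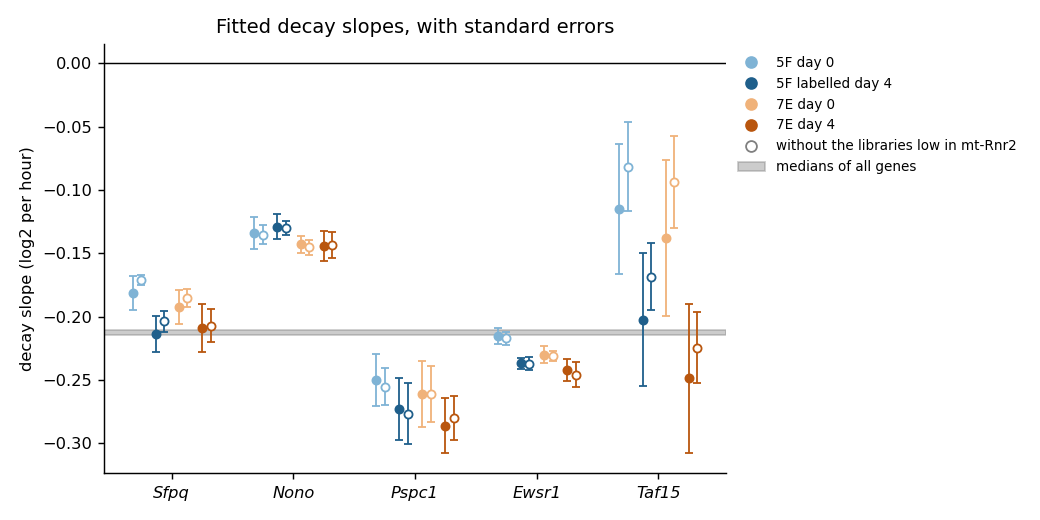
Decay slopes in log2 per hour (vertical axis, more negative for faster decay) with standard errors for the 5 mRNAs in each clone and day, from all libraries (filled) and without the 12 libraries low in mt-Rnr2 (open). Nono lies above the band of all-gene medians and Pspc1 below it, and Taf15 has the widest errors among the 5.

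Differences in decay were tested as differences in slope, without a replicate block. Same-numbered libraries mostly deviated together after actinomycin D, with a median r of 0.676, 0.431 and 0.459 at 120, 240 and 360 min. The calls and shares of genes below belong to this unblocked test. More genes were called with a replicate block, as given in the last section. In clone 5F, 0 of the 5 mRNAs and 0 of the 40 paraspeckle-related genes passed with 4OHT (edgeR), and 0.279% of all 18623 genes did (0.161% slower and 0.118% faster). At an unadjusted p under 0.05 there were 0, 1 and 741 genes. The slope of Taf15 was more negative by -0.09 log2 per hour (95% interval -0.23 to 0.05, unadjusted p = 0.228, edgeR). For Sfpq the difference was -0.03 (95% interval -0.07 to 0.01), for Pspc1 -0.02 (-0.08 to 0.04), for Ewsr1 -0.02 (-0.04 to -0.00) and for Nono 0.00 (-0.03 to 0.03). DESeq2 also called 0 of the 5. The intervals of Nono and Ewsr1 are the narrowest, so a change in their slope of 0.05 log2 per hour would lie outside them.

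In clone 7E, 0 of the 5 and 0 of the 40 passed between day 0 and day 4 (edgeR), compared with 1.33% of all genes (0.526% slower and 0.8% faster). At an unadjusted p under 0.05 there were 0, 5 and 1796 genes. Taf15 again had the largest difference, -0.12 log2 per hour (95% interval -0.26 to 0.03, unadjusted p = 0.115, edgeR). It was called in 1 of 13 alternative settings, the one with a replicate block (adjusted p = 0.0473, edgeR). Without the 12 libraries low in mt-Rnr2, chosen after seeing the data, the straight-line slopes of Taf15 were -0.09 at day 0 and -0.22 log2 per hour at day 4. Their standard errors were 0.04 and 0.03. The difference in slope of Taf15 was not called in that setting. By size factors its mock level was higher at day 4 in both clones, but the means after actinomycin D differed less in clone 5F and in the opposite direction in clone 7E. In clone 5F the mean normalised count was 1211 at day 0 and 1919 in the libraries labelled day 4 in mock samples, but 1004 and 1024 at 120 min, 1020 and 964 at 240 min and 731 and 796 at 360 min. At 120 min the day 0 mean rests on 2 libraries, 795 and 1214. The libraries labelled day 4 had 709, 1211 and 1152 at that time, and the lowest library of each group was low in mt-Rnr2. In clone 7E the mean normalised count was 1538 and 2028 in mock samples, and 1410 and 1037, 1145 and 894, and 902 and 689 at the later times, so day 4 was the lower of the pair at each of these. Without the mock libraries the slope difference of Taf15 was 0.03 in clone 5F and 0.01 log2 per hour in clone 7E, neither of them called. Pspc1 differed from this, with 2296 and 2694 at 120 min and 1385 and 1609 at 360 min in clone 5F, so its higher level in the libraries labelled day 4 was still present.

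The differences for the remaining members in clone 7E were between -0.02 and -0.00 log2 per hour, with the widest interval for Pspc1 (-0.09 to 0.04). Between the clones at day 0, 0 of the 5 passed (edgeR, where 0.0376% of all genes did, 0.0322% slower and 0.00537% faster), and the slopes differed by -0.02 to -0.01 log2 per hour. The difference between the clones in the change with 4OHT was called for 0 of 18623 genes (477 at an unadjusted p under 0.05 in edgeR, and 4 called by DESeq2), and for Taf15 it was -0.03 (95% interval -0.23 to 0.17). No member reached an unadjusted p under 0.05 in these comparisons.

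The mRNAs most like each member were found by Pearson's r of log2 normalised counts over the 47 libraries, among 5945 genes with a mean of at least 500. All these mRNAs share the decline with time, and the libraries share their scaling. Among the 3 most like Sfpq were Dld and Etv5 (r = 0.99 and 0.98), and Nono was most like Zfp106, Rbbp4 and Las1l (0.98, 0.98 and 0.98). Pspc1 was most like Cd164, Ccn2 and H13 (0.99, 0.99 and 0.98). Ewsr1 was most like Thrap3, Otub1 and Tubb5 (0.99 each), and over the 12 mock libraries alone these values were 0.24, -0.10 and 0.47. Among the 3 most like Taf15 were Ywhae and Snrpd3 (0.97 and 0.96).

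Among the members themselves, Sfpq and Ewsr1 were closest, with r = 0.96 over the 47 libraries, and Nono and Taf15 were farthest apart, with 0.66. Within the DBHS family r was 0.85 for Sfpq with Nono, 0.85 for Sfpq with Pspc1 and 0.79 for Nono with Pspc1. Within the FET family it was 0.71 for Ewsr1 with Taf15, while Taf15 had 0.87 with mt-Rnr2. Without the 12 libraries low in mt-Rnr2, the last value was 0.72.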

How the data were processed

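RNA of the half-life libraries was depleted of rRNA and made into libraries that do not keep the strand. The authors mapped the reads with STAR to GRCm38 with ERCC sequences, counted unique reads per gene and deposited the raw counts, of which 0 per-sample columns were left unused. Relative binding is deposited as a fraction of pooled, scaled CRAC counts, and AVEN binding and the level-scaled values as a ratio. The authors' RPKM values are for the tagged lines. Columns with the authors' log2 fold changes, adjusted p-values, mean counts, half-lives and map coordinates were not used.

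The software was edgeR 4.0.16 under R 4.3.3 (quasi-likelihood test, filterByExpr, Benjamini-Hochberg threshold 0.05), DESeq2 1.42.0 and limma 3.58.1. Scaling used DESeq2 size factors among libraries of the same time and, between times, 1 common factor from 34 ERCC sequences with a mean above 50 counts. Mock levels were fitted over the 12 mock libraries and decay over all 47, with a slope per clone and day. Half-lives are from ln(normalised count + 1) on time. The scripts were tested on simulated data. Sequences, positions and 53274 gene symbols are from Gencode M21 (GRCm38), a later release than the authors' M16. Of 7240 transcripts, 6711 matched in name and length.

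Named genes are the 5 members, Skiv2l and Aven as label checks, the 3 genes most like each member, Rbm14 and Matr3, and up to 3 paraspeckle-related genes per direction and comparison. Some genes this rule selects are not reported here by name, although counts over lists include them. The members, lists and rules were chosen with earlier results of these data known. Replicate libraries differed by at least 2.59 chi-square per gene, so none was a copy. Alternatives were TMM, each library's own spike-ins, DESeq2, limma, no filter on low counts, a replicate block, and each replicate, the 360 min, the mock or the other clone's libraries left out.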

Additional observations from a re-analysis of the deposited data

Results flagged for a closer look

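The change with 4OHT in mock libraries differed between the clones for Neat1, Rbm14 and Rbm7 of the paraspeckle-related list by the interaction test of edgeR with Benjamini-Hochberg adjustment. As the change in clone 7E minus that in clone 5F, Neat1 had -0.51 (adjusted p = 0.0114), Rbm14 -0.29 (adjusted p = 0.0496) and Rbm7 0.19 (adjusted p = 0.0477). Of the 40 genes of the list, 4 passed this test (10%), compared with 11.9% of all genes, so the list did not exceed the share of all genes. No member passed. Of the exonic nt of Rbm14, 18.6% overlap Gm21992. Groups of 3 libraries are too small for a test of outlying samples.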

How the results depend on the processing

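The counts of genes called depended on the processing, but no direction of a member's called change by size factors was turned except by each library's own spike-ins. With these, the counts over all genes were 15402 for day 4 of clone 7E and 14373 for the difference between the clones' mock responses, and 32, 128, 4 and 1 for decay in clone 5F, clone 7E, between the clones and for their response. Pspc1 (-0.62) and Taf15 (-0.70) turned in clone 7E, Pspc1 (-0.92) in the response and Ewsr1 (-0.014) between the clones. DESeq2 gave 29 and 4 genes for decay between the clones and the decay response, limma 21 for decay in clone 5F, and no filter 162 for decay in clone 7E. Without the 360 min libraries 110 genes were called in clone 7E and 2 between the clones. Without the mock libraries, 18, 60 and 5 were called in clone 5F, between the clones and for the response, and with clone 5F fitted alone 26. Without the 12 libraries low in mt-Rnr2, which was chosen after seeing the data, 0 were called between the clones and 1 for the decay response.

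With replicates left out in turn, the counts ranged from 1682 to 3721, 4584 to 6197, 4094 to 5323 and 752 to 1446 in the mock comparisons, and from 3 to 18, 38 to 116, 0 to 1 and 0 to 0 in the decay comparisons, in the order of the report (clone 5F, clone 7E, between the clones at day 0, response). Fewer libraries entered these fits. Same-numbered libraries deviated together by r over 0.1 in 6 of 18 mock pairs. After actinomycin D the same held in 13 of 15, 16 of 18 and 15 of 18 pairs at 120, 240 and 360 min. The criterion for pairing, that every pair exceed this value, was thus not met. However, the 6 mock pairs over it were those of both clones at the same day, with r of 0.365 to 0.686. Libraries of the same number and day thus deviated together across the clones, and the main tests, without a replicate block, do not account for this. With a replicate block, 254, 1844, 488 and 8 genes were called in the decay comparisons, and Taf15 in clone 7E passed (-0.11 log2 per hour, adjusted p = 0.0473). In the other alternatives, 0 of the 5 members were called for decay. Of the refitted half-lives, 47 moved beyond the spread of the slope and 93 did not, most of the former without replicate 1 or the 360 min libraries. The spread of technical libraries limits all tests, and the pooled CRAC values carry no error.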
